A study of Mus musculus with 6 samples.

Results

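AP-1 is a family of dimeric transcription factors, and 10 of its genes were followed here across mouse thyroid tumor cells, namely the FOS members Fos, Fosb, Fosl1 and Fosl2, the JUN members Jun, Junb and Jund, and Atf3, Batf and Maff. They were taken by symbol from a table of 35027 genes, which held all 10. The table covers Kate-positive cells sorted from thyroid tumors, Kate being a red fluorescent protein, with 3 libraries of YAP tumors and 3 of BrafYAP tumors. YAP tumors expressed YAPS127A, a constitutively nuclear form of the Hippo pathway effector YAP, from a dox-inducible transgene. BrafYAP tumors carried the same transgene and also expressed BrafV600E from the endogenous gene. Both groups shared the Rosa-based rtTA and Kate allele, and expression of the transgene was directed to thyroid follicular cells. All mice were kept on a mixed background and received dox chow, from 4 weeks of age by the labels and the study's methods, although its results text gives a later start. Age at collection was not given in the sources used here. By the labels each YAP library held 3 pooled tumors and each BrafYAP library 1 tumor, whereas the study's methods describe a single tumor for every replicate. If the labels hold, pooling and genotype cannot be told apart. The study also reports different histology for these genotypes, with poorly differentiated cancers in YAP mice and mostly anaplastic ones in BrafYAP mice. No group without YAPS127A was analysed here. Every contrast below therefore compares YAP-driven tumors with and without BrafV600E, along with whatever else differed between the groups.

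AP-1 proteins bind DNA as pairs through a basic region and a leucine zipper. FOS proteins need a partner, usually a JUN protein, whereas JUN proteins can also pair among themselves. Fos, Fosb, Jun, Junb and Atf3 are immediate-early genes, which growth factor signaling through ERK and cell stress both switch on within minutes. Fosl1 is known as a gene that needs sustained ERK activity, and YAP with its DNA-binding partner TEAD often shares enhancers with AP-1. In thyroid follicular cells, FOS and JUN genes are known to respond to thyrotropin and growth factors.

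The libraries held 26.2 to 36.9 M estimated reads, and YAP replicate 1 and BrafYAP replicate 6 correlated least with each other (Pearson's r = 0.733 across 7319 genes, which are not independent replicates). Follicular markers were uneven. Pax8 had 5844 to 14235 estimated reads per library, whereas the thyroglobulin gene Tg had 116 and 66 in BrafYAP replicates 1 and 2 and 1046 to 22121 in the other libraries, and Tshr had 0 in those same BrafYAP libraries. Macrophage transcripts were abundant despite the sort. Lyz2, a myeloid lysozyme gene, had 50295 to 579345 estimated reads. The 14 leukocyte markers summed to 214828 to 733482 scaled reads in YAP and 62698 to 229744 in BrafYAP libraries. Estimated reads are not scaled between libraries, so the share of Lyz2 in these sums cannot be read from its values. The T-cell marker Cd3e had at most 42 estimated reads. In such bulk samples, fewer cells of a type and less RNA per cell cannot be told apart.

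The promoters of the 4 genes with the highest levels, by TPM with the exonic length as described below, are shown. The reason is that AP-1 genes are themselves controlled through AP-1-like and CRE-like elements. Each line gives the 100 bases before the RefSeq transcription start on GRCm38.p6, 5′ to 3′ on the gene's strand, from chr4:95052223-95052322 (minus) for Jun, chr8:84978749-84978848 (minus) for Junb, chr12:85473790-85473889 (plus) for Fos and chr1:191183334-191183433 (minus) for Atf3. Capitals mark matches to the motifs searched on both strands.
Jun: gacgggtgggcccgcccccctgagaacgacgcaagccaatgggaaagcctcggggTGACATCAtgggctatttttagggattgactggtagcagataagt
Junb: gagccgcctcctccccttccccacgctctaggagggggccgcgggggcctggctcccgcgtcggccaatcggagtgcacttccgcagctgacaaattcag
Fos: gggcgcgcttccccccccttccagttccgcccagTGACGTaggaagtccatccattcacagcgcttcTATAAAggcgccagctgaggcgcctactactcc
Atf3: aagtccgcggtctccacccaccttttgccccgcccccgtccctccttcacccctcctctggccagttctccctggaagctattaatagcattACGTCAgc

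The motifs were TGACTCA (the AP-1 site), TGACGTCA (the CRE), TGACATCA, TGACGT (contained in the CRE), TATAAA, the TEAD core CATTCC and the CArG box of SRF. Jun held TGACATCA from position -45, a sequence present in 3.62% of 32851 windows of the same kind, which run from 250 bases before a RefSeq start into the transcript. Fos held TGACGT from position -66, and Atf3 held its reverse complement from position -8, a motif in 7.51% of windows. Batf also held TGACGT, from position -98, and 1 of the 3 Maff windows held a full CRE, found in 1.79% of windows. Another Maff window held TGACATCA, as Jun did, from position -45. Neither the AP-1 site (5.2% of windows), the TEAD core (14.7%) nor the CArG box (1.63%) was in any window of the 9 members that the RefSeq table held. Elements more than 250 bases before the start, or deep in the gene, were outside this search. Junb had TATAAA at position 1, just past the stretch shown. The table held no window for Fosl1.

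Levels can be compared between genes only per length, and the deposited values appeared to be divided by genomic span, introns included. This was inferred from the values and is not stated by the study. The deposited values were therefore rescaled to TPM with the exonic length for this purpose. The levels and shares on that scale rest on this inference. On that scale Fos was the most abundant AP-1 transcript in both groups, with means of 1997 ± 448 in YAP cells and 2576 ± 287 in BrafYAP cells (SD, n = 3 each). Junb followed at 755 ± 991 and 2512 ± 441, then Atf3 at 521 ± 312 and 1193 ± 557, and Jun at 65.2 ± 64.3 and 387 ± 241 (SD, n = 3 each). The libraries of Fos and Junb overlapped in both groups. In YAP cells those of Junb also overlapped with those of Atf3 and of Jun. Each Atf3 value lay above each Jun value in both groups. In the TPM as deposited, Atf3 instead had lower means than Jun (9.06 against 25.5 in YAP and 20.0 against 144 in BrafYAP cells). With the exonic length, the remaining 6 genes lay between 7.63 and 43.3 on average in YAP and between 6.01 and 57.0 in BrafYAP cells. Among them Fosb had the highest mean in YAP and Jund in BrafYAP cells. Batf had the lowest mean in BrafYAP and Maff in YAP cells.

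**Figure D1:**
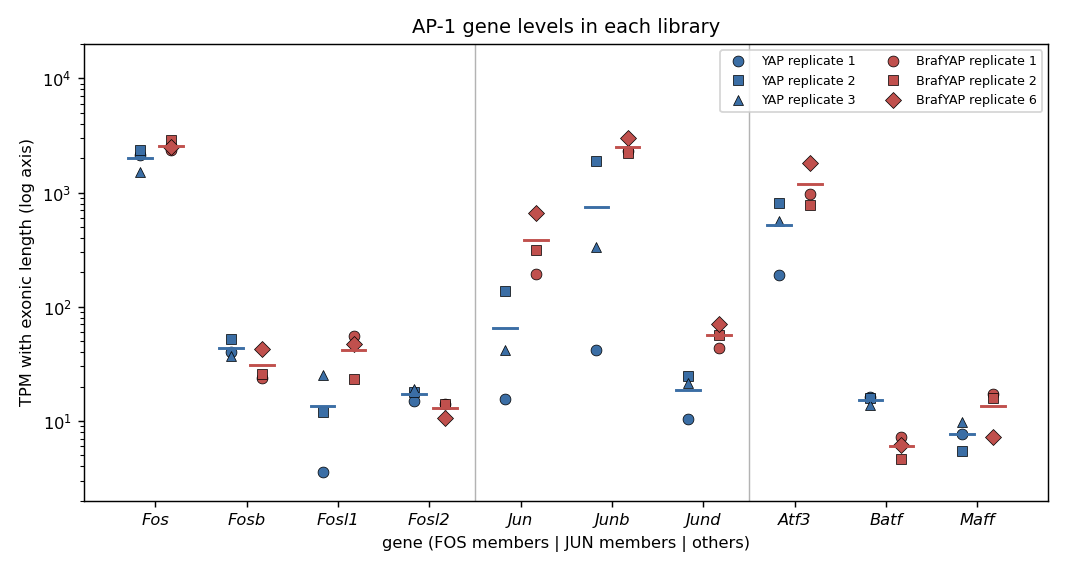
TPM with the exonic length (log axis) of each of the 10 genes in each library, with YAP libraries in blue, BrafYAP libraries in red, the replicate number as the marker shape and the group mean as a bar. Fos is high in every library, whereas Junb spans from 41.7 in YAP replicate 1 to 1886 in YAP replicate 2.

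Within a library these levels give the make-up of the AP-1 transcript pool, which does not depend on scaling between libraries. JUN members made up 2.76, 38.4 and 15.5% of the pool in YAP replicates 1, 2 and 3, and 42.5, 40.8 and 45.8% in BrafYAP replicates 1, 2 and 6. FOS members made up 88.5, 46.0 and 61.6% in YAP and 40.9, 46.5 and 31.7% in BrafYAP replicates. The JUN share of every BrafYAP library thus exceeded that of every YAP library, by little over YAP replicate 2, and the FOS shares overlapped. Fos alone was 94.8 to 97.9% of the FOS transcripts in all 6 libraries, and Junb was 61.5 to 92.1% of the JUN transcripts. The ratio of Junb to Fos was 0.0197, 0.794 and 0.224 in YAP and 0.980, 0.770 and 1.21 in BrafYAP replicates, so the ratio overlapped between groups through YAP replicate 2. The ratio of Jun to Fos was 0.00743, 0.0581 and 0.0280 in YAP and 0.0825, 0.108 and 0.263 in BrafYAP replicates, without overlap.

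**Figure D2:**
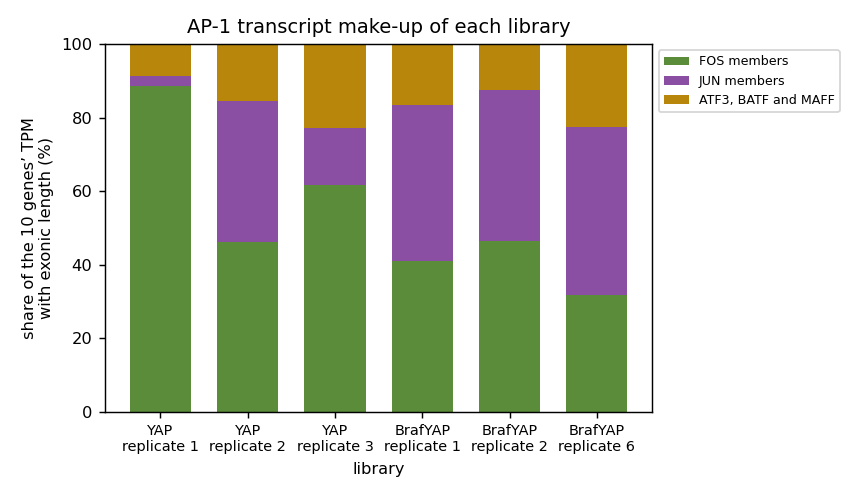
Share (%) of the summed exonic-length TPM of the 10 genes held by FOS members, JUN members and the other 3 genes in each library. JUN members hold 2.76% in YAP replicate 1 and 40.8 to 45.8% in the BrafYAP libraries.

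The difference between BrafYAP and YAP cells was then tested for each gene by limma, on the log2(TPM + 1) scale. Of the 10 AP-1 genes, 0 passed a limma adjusted p-value of 0.05, against 0.246% of all 7319 genes tested (0.082% higher and 0.164% lower in BrafYAP) and 0% of the 16832 genes on the estimated reads. Without adjustment 5 of 10 had a p-value under 0.05, namely Jun, Junb, Jund and Fosl1, higher in BrafYAP, and Batf, lower. Of these, 4 were among the 8 genes fitted on TPM, where 19.9% of all genes had such a p-value (10.7% higher and 9.17% lower), and Batf was among the pair fitted on estimated reads, where 20.2% did (9.68% higher and 10.5% lower). All 3 JUN members had non-overlapping groups, higher in BrafYAP, as had 11.8% of all genes. Fosl2 and Batf were lower without overlap, and in either direction 28.2% of genes on TPM and 28.7% on estimated reads had groups apart. The median log2 fold change was 2.77 for the JUN members and 0.00 for the FOS members, beside -0.06 for all genes. Nothing says that the tumors of a group came from separate litters or days, so these p-values measure the spread between these libraries only.

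**Figure D3:**
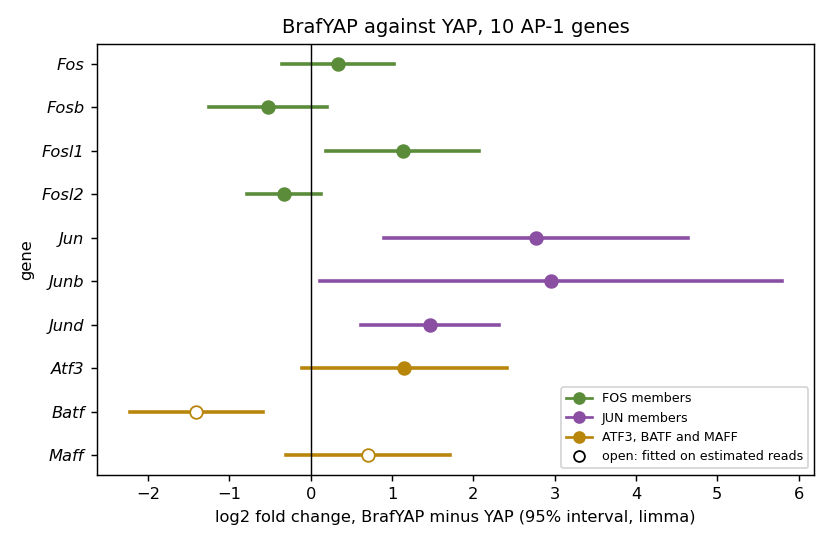
log2 fold change, BrafYAP minus YAP, of the 10 genes with 95% intervals from limma, coloured by class, with open points for the genes fitted on estimated reads. The intervals of Jun, Junb, Jund, Fosl1 and Batf leave out 0, and no gene passed the threshold after adjustment over all genes.

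Among the FOS members, Fos (chromosome 12, 85473890 to 85477273, mm10) had TPM of 568, 658 and 382 in YAP replicates 1, 2 and 3, and 605, 731 and 650 in BrafYAP replicates 1, 2 and 6. The groups overlapped, and the lowest value was that of YAP replicate 3. Its log2 fold change was 0.34 (95% interval -0.36 to 1.03, limma adjusted p = 0.543). Fosb (chromosome 7, 19302696 to 19310051), whose protein accumulates under repeated stimulation, had TPM of 13.1, 17.8 and 11.6 in YAP and 7.56, 7.98 and 13.7 in BrafYAP replicates. BrafYAP replicates 1 and 2 were the lowest of all 6, whereas BrafYAP replicate 6 lay within the YAP range. The log2 fold change of Fosb was -0.52 (SE 0.31, limma adjusted p = 0.387).

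Fosl1 (chromosome 19, 5447547 to 5455946) encodes FRA-1, the FOS member most tied to sustained RAS and ERK signaling. It had TPM of 0.331, 1.16 and 2.24 in YAP replicates 1, 2 and 3, and 5.03, 2.07 and 4.28 in BrafYAP replicates 1, 2 and 6. Only BrafYAP replicate 2 fell within the YAP range, just under YAP replicate 3. The log2 fold change was 1.13 (SE 0.40, limma unadjusted p = 0.0247, adjusted p = 0.182), and 1.89 (SE 0.71, limma adjusted p = 0.206) on the estimated reads. Fosl1 shares 2767 bases with Ccdc85b on the opposite strand, and the counting was not stated to use strand. Ccdc85b had 15, 1146 and 356 estimated reads in YAP and 3035, 6170 and 9068 in BrafYAP replicates, beside 82, 239 and 550 and then 1149, 666 and 1221 of Fosl1. How many of the Fosl1 reads belong to Ccdc85b was not tested. Fosl2 (chromosome 5, 32135801 to 32157842), which encodes FRA-2, went the other way. Its TPM were 2.52, 3.11 and 3.08 in YAP and 2.30, 2.26 and 1.76 in BrafYAP replicates, so that each BrafYAP library lay below each YAP library. The difference was small (log2 fold change -0.33, SE 0.19, limma adjusted p = 0.387), and 16.4% of all genes were likewise lower without overlap. The ratio of Fosl1 to Fosl2, on the exonic-length scale, was 0.239 to 1.32 in YAP and 1.66 to 4.41 in BrafYAP libraries. It joins genes that differed in opposite directions in these same libraries, so it is a description and no separate result.

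Jun (chromosome 4, 95049034 to 95052222), which encodes c-JUN, the main target of JNK kinases, had TPM of 6.06, 55.0 and 15.4 in YAP replicates 1, 2 and 3. In BrafYAP replicates 1, 2 and 6 it had 71.8, 113 and 246. Every BrafYAP library lay above every YAP library, and both groups were wide, with YAP replicate 2 close to BrafYAP replicate 1. The log2 fold change was 2.77 (SE 0.79, limma adjusted p = 0.129), or 5.64-fold between the group means. Junb (chromosome 8, 84974484 to 84978718), a JUN member that often counters c-JUN in proliferation, had TPM of 8.74, 409 and 66.7 in YAP and 463, 440 and 614 in BrafYAP replicates. The BrafYAP libraries were close together, whereas the YAP libraries spread from 1085 to 42660 estimated reads. Its log2 fold change of 2.95 therefore had the widest interval, 0.12 to 5.79 (limma adjusted p = 0.236).

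Jund (chromosome 8, 70698949 to 70700616) is usually the least inducible JUN gene. It had TPM of 4.01, 9.85 and 7.83 in YAP and 16.1, 20.7 and 26.6 in BrafYAP replicates, again without overlap. The log2 fold change was 1.47 (SE 0.36, limma adjusted p = 0.102), the lowest adjusted p of the 10 genes, on 196 to 1503 estimated reads per library. Antisense or neighbouring genes overlap all 3. Junos over Jun had 4 to 76 reads and Gm11175 over Jund had 0 in all libraries. Prdx2, which shares 351 bases with Junb, had 6044 to 10272 reads with overlapping groups.

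YAP replicate 1 held the lowest value of Jun, Junb, Jund, Fosl1 and Atf3. Without it the log2 fold changes were 2.07 for Jun, 1.59 for Junb and 1.15 for Jund (limma adjusted p of 0.304, 0.422 and 0.238). Without YAP replicate 2, the YAP library with the highest JUN values, Jun changed by 3.56 and Junb by 4.29, both past the threshold (limma adjusted p of 0.0375 and 0.0388), and Jund by 1.71 (limma adjusted p = 0.0511). That fit called 465 of 7276 genes over the whole table, against 18 of 7319 with all libraries. No library left out turned the direction of any of the 10 genes.

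**Figure D4:**
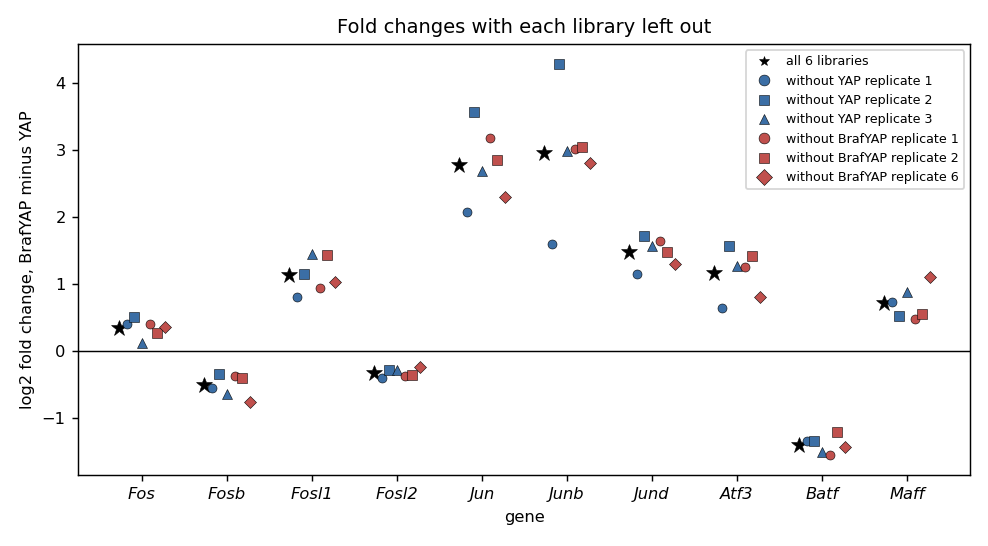
log2 fold change, BrafYAP minus YAP, of each gene with all 6 libraries (star) and with each library left out in turn. Junb ranges from 1.59 without YAP replicate 1 to 4.29 without YAP replicate 2, and no gene crosses 0.

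The JUN members have few exons. Jun and Jund have 1 exon in their only annotated transcript, and Junb has a 1-exon transcript beside one of 2 exons. The other 7 genes each have a transcript of 3 to 5 exons, although Fosb, Fosl2 and Batf also list a 1-exon transcript. Other single-exon genes were also low in YAP replicate 1. Over the 207 other single-exon protein-coding genes tested, the median deviation from a gene's own mean was -0.57 on the log2(TPM + 1) scale in YAP replicate 1, against -0.03 for 5688 multi-exon genes. The median log2 fold change was 0.19 for these single-exon genes and -0.06 for multi-exon genes, and 23.2% of the former and 12.3% of the latter were higher in BrafYAP without overlap. Without YAP replicate 1 the medians were 0.09 and -0.09. Values of multi-exon genes appeared to be divided by their introns too, and this scale understates changes of low genes. The medians of these classes are therefore not fully comparable. The part of transcript structure in the JUN values was not tested.

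**Figure D5:**
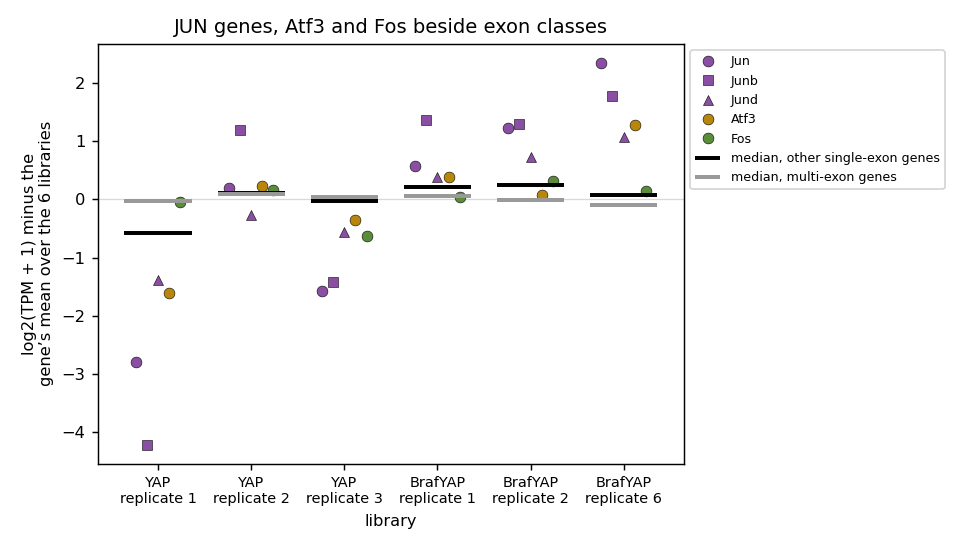
Deviation of log2(TPM + 1) from each gene's mean over the 6 libraries for Jun, Junb, Jund, Atf3 and Fos (points), with the medians of 207 other single-exon and 5688 multi-exon protein-coding genes (bars). In YAP replicate 1 the single-exon median is -0.57, and Jun and Junb lie at -2.79 and -4.21.

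Atf3 (chromosome 1, 191170296 to 191218039) encodes a stress-induced factor that pairs with JUN proteins and can repress. Its TPM were 3.31, 14.6 and 9.29 in YAP replicates 1, 2 and 3, and 16.3, 12.8 and 30.9 in BrafYAP replicates 1, 2 and 6. The groups overlapped, since BrafYAP replicate 2 lay below YAP replicate 2. The log2 fold change was 1.15 (SE 0.53, limma adjusted p = 0.283), and 0.64 without YAP replicate 1 or 0.81 without BrafYAP replicate 6. Its order over the YAP libraries (replicate 1 lowest, replicate 2 highest) was that of Jun, Junb and Jund.

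Batf and Maff had mean TPM under 1 and were compared on log2(estimated reads + 1). Batf (chromosome 12, 85686669 to 85709087), an AP-1 factor best known from lymphocytes and other leukocytes, had 258, 220 and 206 estimated reads in YAP and 104, 91 and 109 in BrafYAP replicates. All BrafYAP libraries lay below all YAP libraries, as did 17.1% of genes on this scale. Its log2 fold change was -1.41 (SE 0.35, limma adjusted p = 0.109). The pan-leukocyte gene Ptprc was also lower in each BrafYAP library, at 1623 to 2473 against 521 to 983 estimated reads. Of the 12 leukocyte markers tested on this scale, 0 passed the threshold, 7 had an unadjusted p-value under 0.05, all lower in BrafYAP, as had 10.5% of all genes in that direction, and the median was -1.73. The part of leukocyte RNA in the Batf value was not tested. Maff (chromosome 15, 79346621 to 79359076), a small MAF protein without an activation domain, had 224, 140 and 271 estimated reads in YAP and 455, 574 and 239 in BrafYAP replicates. BrafYAP replicate 6 lay within the YAP range, and the log2 fold change was 0.71 (SE 0.43, limma adjusted p = 0.385).

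Genes around AP-1 were counted in the same fits, on the estimated reads, where more of them could be tested. Of 12 other dimer partners (ATF, BATF, MAF and JDP2 genes), 10 were tested and 0 passed the threshold, with a median log2 fold change of -0.23 beside -0.12 for all 16832 genes. The partners with an unadjusted p-value under 0.05 were Batf2 (-3.23, SE 0.91, limma adjusted p = 0.133) and Maf (-0.97, SE 0.40, limma adjusted p = 0.238), both lower in BrafYAP and both also active in macrophages. Mafa had 0 reads in all libraries. Among 16 upstream kinases and factors, all tested, 0 passed. Map2k4, a kinase that activates JNK, had the single unadjusted p-value under 0.05 (log2 fold change 1.10, SE 0.36, limma adjusted p = 0.165), and the median was -0.03.

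Of 21 genes with known AP-1 sites or AP-1 dependence, all tested, 0 passed the threshold, 12 were higher in BrafYAP, and the median was 0.40. Without adjustment 4 were higher and 1 lower at a p-value under 0.05, a share close to the 20.2% of all genes on this scale. The cyclin gene Ccnd1 differed by 1.63 on the log2 scale (SE 0.55, limma adjusted p = 0.17), the gelatinase gene Mmp9 by 1.72 (SE 0.61, limma adjusted p = 0.188) and Vegfa by 0.92 (SE 0.32, limma adjusted p = 0.175). The collagenase gene Mmp13, a classical AP-1 target, was lower (log2 fold change -2.32, SE 0.71, limma adjusted p = 0.149).

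Other immediate-early genes and heat-shock genes are given beside the JUN members because all tumors were digested for 1 h at 37 °C before sorting, and dissociation can induce both groups. Of 14 other immediate-early genes, all tested, 12 were higher in BrafYAP, 0 passed the threshold, 3 had an unadjusted p-value under 0.05, all higher, as had 9.68% of all genes in that direction, and the median was 0.50. The transcription factor gene Egr1 differed by 1.66 on the log2 scale (SE 0.35, limma adjusted p = 0.0914), the ERK and JNK phosphatase gene Dusp1 by 1.92 (SE 0.50, limma adjusted p = 0.115) and Ier2 by 3.06 (SE 1.05, limma adjusted p = 0.178). Of 8 heat-shock genes, 4 were higher, 0 passed, and the unadjusted p-value was under 0.05 for Hspa1a, Hspa1b and Hspb1, all higher, beside the same 9.68% of all genes. Hspa1a had 924, 19763 and 3929 estimated reads in YAP and 24706, 61212 and 79619 in BrafYAP replicates, and can share reads with its near-identical copy Hspa1b. Ier2 had 288, 6520 and 1616 and then 9308, 16921 and 18742. For both genes, as for Hspa1b and Hspb1, the order of the YAP libraries was that of Jun and Junb, with YAP replicate 1 lowest. By contrast, Egr1 and Dusp1 were lowest in YAP replicate 3, at 3388 and 30792 estimated reads. Single-exon protein-coding genes other than AP-1 members were, as given above, also low in YAP replicate 1 (median deviation -0.57). The exon structure of these immediate-early and heat-shock genes was not compared, and its part in their order was not tested. Summed over each list, the immediate-early genes had 117434 to 201423 scaled reads in YAP and 278413 to 421748 in BrafYAP libraries, and the heat-shock genes 58994 to 117757 and 121486 to 210502. These sums follow the most abundant genes. The values of single genes given here are estimated reads before scaling, so their shares of the sums cannot be read from them. Dusp1 alone had 57308, 82066 and 30792 estimated reads in YAP and 130942, 354300 and 286147 in BrafYAP replicates. Hspa1b had 1276, 20634 and 6176 and then 32827, 82069 and 87780. The most abundant heat-shock gene in every YAP library was Hspa8, with 44337, 38362 and 38296 and then 32990, 40214 and 37295. Of the heat-shock genes, 3 were higher without overlap and 2 (Hspa8 and Hspe1) lower, beside 11.7% and 17.1% of all genes. The part of dissociation in the JUN values was not tested.

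Over the whole tested table, the genes whose log2(TPM + 1) tracked Jun most closely across the 6 libraries were Tram1, Klhl9 and Nol7 (Pearson's r of 0.999, 0.998 and 0.998). Those nearest to Fosl1 were Esrp2, Ccdc120 and AC126457.1 (0.988, 0.980 and 0.978), and those nearest to Fos were Gm17538, Nfil3 and 2900097C17Rik (0.971, 0.932 and 0.929). These are the extremes of 7319 genes over 6 libraries of 2 groups and are given as a description.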

How the data were processed

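RNA-seq was performed on about 20000 sorted cells per library (SMART-Seq amplification with 12 cycles, then 8 PCR cycles). Alignment by the authors was to mm10 (STAR 2.6.1d), expectation-maximization quantification in Partek used Ensembl release 95, and the deposited TPM carry an added 0.0001. Groups followed GEO's titles. Low values multiplied by the genomic span of each gene (GENCODE M21) fell within 0.05 of whole multiples of 1 step per library in 71.0 to 75.6% of values under 200 reads, and in 24.3 to 27.5% when exonic length was used instead. The TPM were therefore treated as divided by span. Estimated reads are (TPM - 0.0001) × span / step, for 34640 genes at a single locus. Scaled reads keep the authors' scaling between libraries. Depth limits counting error only, since no molecular identifiers were used.

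TPM are not counts, so limma 3.58.1 in R 4.3.3 was run (eBayes with trend, two-sided, Benjamini-Hochberg over all genes, no block) on log2(TPM + 1) where a gene's mean TPM reached 1, a scale that understates changes of low genes. Genes below that were fitted on log2(estimated reads + 1), with a mean of at least 10 reads. The fit was tested on simulated data. SD are between libraries, n = 3 per group.

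All 10 members are named. From each list beside them, genes with an unadjusted p under 0.05 could be named, up to 4 by smallest p, and so could the 3 genes most correlated with Fos, Fosl1 and Jun. Markers given with reads per library to describe the samples were named outside this rule. Members and lists were chosen with earlier results of these data known. Added after seeing the data were TPM with the exonic length and the exon classes. Some items of the design and marker lists are not reported here.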

Additional observations from a re-analysis of the deposited data

How the results depend on the processing

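The number of AP-1 genes past the threshold was 0 in the reported fits and 4 with array weights (Jun, Junb, Jund and Batf, at limma adjusted p of 0.0137, 0.0297, 0.0132 and 0.0375), where 1393 of 7319 genes were called over the whole table against 18 in the reported fit. Leaving out each library in turn gave 0 to 2, the 2 being Jun and Junb without YAP replicate 2, where 465 of 7276 genes were called, and the cause was not tested. It was 0 with pseudocounts of 0.1 and 0.0001, a filter raised 10-fold (8 genes tested), no filter, quantile normalization, median-ratio scaling, no trend, estimated reads and exonic-length TPM, and all genes tested kept their direction in all these fits. The JUN median log2 fold change ranged from 1.59 to 3.56 and the FOS median from -0.09 to 0.11 over the libraries left out.

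With the replicate number as a block, 0 AP-1 genes passed (lowest adjusted p = 0.295), with a JUN median of 2.2 and a FOS median of -0.05. Deviations of same-numbered libraries correlated at -0.0483 and 0.0619 across genes, within the range of differently numbered pairs (-0.0488 to 0.0875). So few pairs cannot show whether any libraries shared a litter or a day. With 3 libraries a group, none of them YAP-free, and TPM without counts, wide intervals such as that of Junb limit what can be called.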
